A study of Mus musculus with 52 samples.

Results

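The pairs described here are daughter-cell pairs of burst-forming unit-erythroid (BFU-E) founders, split by how much α-globin RNA they held. They are called erythroid only because they met the limits on Gata1 and Mpo given below. Each founder was a single cell sorted as a BFU-E, and each pair is its 2 daughters after 1 division. A BFU-E is by definition a progenitor committed to the red cell lineage. A pair was selected when both daughters had at least 100000 counts, Gata1 of at least 6.5 and Mpo below 10, both on a log2(CPM + 1) scale, where CPM is the count scaled to the total of its library (counts per 1e6). It was then called globin-high when the mean of Hba-a1 over its daughters was at least 7 on that scale, and globin-low otherwise. The members were thus selected on measured values of these libraries. The rules kept 17 of 26 pairs, or 34 of 52 cells, of which 8 pairs were globin-high and 9 globin-low. Of the 9 pairs left out, 3 held a library that was too shallow and 6 did not meet the Gata1 or Mpo limit. Both daughters of pairs 9 and 10 without dexamethasone and of pairs 6 and 7 with it held Mpo of 12.2 to 14.5. Their Gata1 was 0 to 1.65, so not every sorted founder gave daughters that met the erythroid limits.

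Founders were sorted from the fetal liver of C57/Bl6J mouse embryos at embryonic day 14.5, and no genetic change is named for any group. The sort took cells depleted of lineage, Sca-1, CD16/32 and CD41 staining and used antibodies against CD117, CD71 and CD24. Single founders were kept for 16 hours either in medium without dexamethasone (untreated) or with 100 nM dexamethasone, a synthetic glucocorticoid, with 13 pairs in each arm, and the polyadenylated RNA of each daughter was sequenced separately. Both classes hold both arms: 4 untreated and 4 dexamethasone pairs were globin-high, and 4 untreated and 5 dexamethasone pairs were globin-low (Fisher's exact test, two-sided, p = 1). The labels name no animal, so founders may share an embryo or litter, and each p-value reflects variation among founders and wells, part of which may be technical. The cells were cultured progenitors, each measured once, and a class here is a range of 1 transcript, not a sorted population.

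As background, adult hemoglobin is a tetramer of α-globin chains, made from Hba-a1 and Hba-a2, and β-globin chains, made from Hbb-bs and Hbb-bt in this strain. Globin genes are switched on in erythroid cells by a small set of DNA-binding factors: Gata1 binds GATA motifs, Klf1 binds CACCC boxes, and Nfe2 with its partners binds NF-E2 motifs. Maturing red cells also raise heme synthesis, iron uptake and membrane skeleton genes while genes of early progenitors such as Kit, Gata2 and Myb are turned down.

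Hba-a1 (ENSMUSG00000069919) lies on chromosome 11 at 32283511 to 32284465 on the plus strand of GRCm38. Hbb-bs (ENSMUSG00000052305) lies on chromosome 7 at 103826534 to 103828096 and Hbb-bt at 103812524 to 103813996, both on the minus strand. Their promoters are shown because the pairs were split on the first and compared on the other pair. Each is the RefSeq window of GRCm38.p6 from 250 bases before to 50 after the transcription start, printed 5′ to 3′, with matches to 3 motifs in capitals. The gene spans above are from GENCODE M21, whose starts differ from the RefSeq starts. A position before the RefSeq start can therefore lie within a printed span. The GATA motif was AGATAA or TGATAA. For the CACCC box the letters were CCNCNCCC. The NF-E2 motif was TGAGTCA. Each was searched on both strands, and no match overlaps another.
Hba-a1, chr11:32283422-32283721, plus strand: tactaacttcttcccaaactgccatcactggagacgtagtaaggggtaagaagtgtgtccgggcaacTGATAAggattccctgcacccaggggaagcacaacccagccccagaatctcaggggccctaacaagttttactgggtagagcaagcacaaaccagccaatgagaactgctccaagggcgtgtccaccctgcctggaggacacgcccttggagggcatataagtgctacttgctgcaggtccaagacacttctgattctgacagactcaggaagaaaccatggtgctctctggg
Hbb-bs, chr7:103827879-103828178, minus strand: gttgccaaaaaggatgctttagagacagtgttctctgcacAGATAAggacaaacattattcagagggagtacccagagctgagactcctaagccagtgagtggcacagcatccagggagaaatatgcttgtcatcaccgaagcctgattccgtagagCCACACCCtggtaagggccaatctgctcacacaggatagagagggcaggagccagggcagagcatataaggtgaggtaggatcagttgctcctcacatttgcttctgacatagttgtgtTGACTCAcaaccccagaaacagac
Hbb-bt, chr7:103813874-103814173, minus strand: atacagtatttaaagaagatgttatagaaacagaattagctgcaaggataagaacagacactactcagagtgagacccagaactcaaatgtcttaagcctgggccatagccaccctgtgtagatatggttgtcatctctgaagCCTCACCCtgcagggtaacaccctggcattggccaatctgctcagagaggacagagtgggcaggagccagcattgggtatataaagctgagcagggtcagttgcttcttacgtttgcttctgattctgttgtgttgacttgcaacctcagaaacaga
The Hba-a1 window holds 1 GATA match, at −183 from the start. The Hbb-bs window holds 1 match of each motif, with its GATA match at −210 and its CACCC match at −93, and the NF-E2 match is on the opposite strand. The Hbb-bt window holds 1 CACCC match, at −107. The same letters occur in 18.61% (GATA), 49.47% (CACCC) and 5.202% (NF-E2) of the 32851 promoter windows of the same length, so a match describes the sequence and no more. The Hba-a2 window repeats that of Hba-a1 in 297 of 297 overlapping bases. The coding sequences of Hba-a1 and Hba-a2 differ at 1 of 429 bases, and those of Hbb-bs and Hbb-bt at 1 of 444 bases, so the split of reads within each couple is uncertain.

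Depth and RNA measures of the libraries overlapped between the classes. Total counts ran from 1191155 to 5606500 per globin-high library (median 3215921) and from 405058 to 3783164 per globin-low library (median 2702501), and the 34 libraries had 6029 to 9089 genes with a count. Summed over its daughters, a pair held a log2 total of 22.51 ± 0.44 (SD, n = 8) against 22.14 ± 0.83 (SD, n = 9), a difference with a two-sided exact permutation p of 0.311 over pairs. Genes with a count were 8111 ± 760 (SD, n = 8) against 7611 ± 737 (SD, n = 9; exact permutation p = 0.186), and mitochondrially encoded genes took 1.88% ± 0.46 (SD, n = 8) against 2.05% ± 0.49 (SD, n = 9; exact permutation p = 0.473) of counts. The 100 largest genes of a pair took 21.6% ± 1.47 (SD, n = 8) against 21.4% ± 1.75 (SD, n = 9; exact permutation p = 0.803). The number in each library's code was read here as a plate column, which is an inference. Columns 1 to 4 hold 6 globin-high and 6 globin-low pairs, and columns 5 to 7 hold 2 and 3. These are called the 2 plate sets below. Columns 1, 2 and 5 hold untreated pairs only, columns 3, 4 and 7 dexamethasone pairs only, and column 6 holds both. Single columns are thus largely confounded with treatment.

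Classes were chosen by Hba-a1, so its values are a description. Across the 17 pairs the mean of the daughters ran from 0.73 in dexamethasone pair 8 to 11.6 in dexamethasone pair 9, with a median of 6.88. The globin-low pairs ran from 0.73 to 6.88 (median 5.88) and the globin-high pairs from 7.36 to 11.6 (median 8.99). The threshold falls within a continuous run of values, with dexamethasone pair 4 at 7.36 just above it and untreated pair 3 at 6.88 just below. Sisters held similar amounts: their median difference was 0.63 over all pairs, 0.23 in the globin-high and 0.84 in the globin-low pairs, and the widest was 3.35, in dexamethasone pair 11. In 3 pairs, 1 globin-high and 2 globin-low, the daughters lay on opposite sides of 7.

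**Figure D1:**
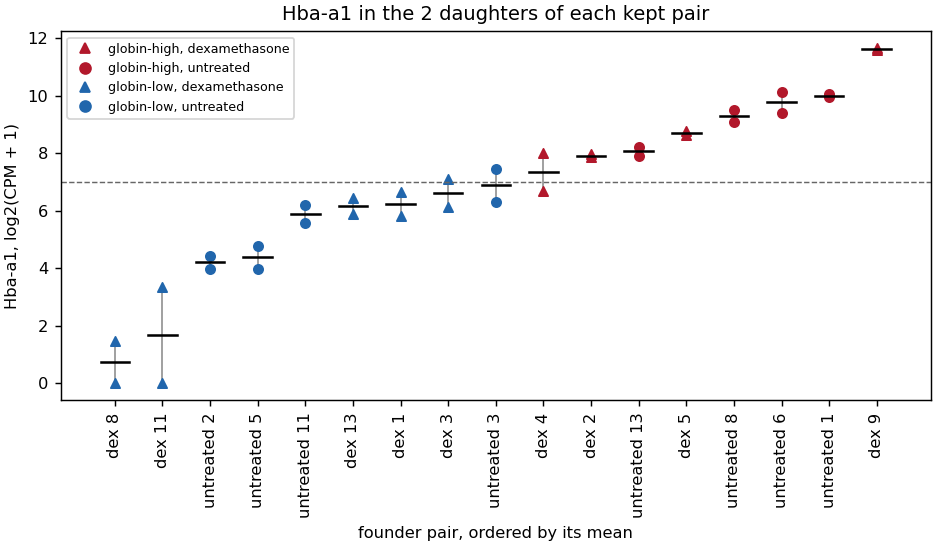
Hba-a1 as log2(CPM + 1) in both daughters of each kept pair (points; triangles dexamethasone, circles untreated) with the pair mean (black bar) and the threshold of 7 (dashed line). The pairs form a gradient from 0.73 to 11.6 without a gap at the threshold, and dexamethasone pairs lie at both ends.

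Across all other genes the classes could not be separated by the main test. Counts of the 2 daughters were summed, and edgeR's quasi-likelihood test with treatment as a covariate called 0 of 7388 genes at a Benjamini-Hochberg adjusted p under 0.05 (0%). The smallest adjusted p was 0.958. At an unadjusted p under 0.05, 226 genes passed (3.06%), 111 with higher values in globin-high pairs (1.5%) and 115 with lower values (1.56%). The 3.06% is a smaller share than the threshold of 0.05 would pass if no gene differed. DESeq2 on the same sums called 38 genes, 31 higher and 7 lower in globin-high pairs, with 528 at an unadjusted p under 0.05. Of the genes named below it called only Hba-a2, Scd2, Arrb1, Med22, Abhd17a, Cd47, Itm2b, Fgfr1op and Ifitm2. The call of Hba-a2 is a description only, because its reads cannot be separated with certainty from those of Hba-a1. The DESeq2 adjusted p was 0.198 for Hbb-bs, 0.397 for Car2 and 0.0552 for Mat2a. With limma on mean log2 values 0 genes were called, and 504 had an unadjusted p under 0.05, 356 higher and 148 lower. Log2 differences above 0 made up 50.3% of the genes tested, and the median over all genes was 0.00. The scaling used in edgeR places this centre near 0, so it is a baseline for the genes and lists below and not a result. Under limma, on values scaled by library totals alone, the median was 0.16. Below, a difference is the edgeR log2 fold change of globin-high minus globin-low with its standard error, p is unadjusted unless it is said to be adjusted, and levels are pair means of log2(CPM + 1). In edgeR, every adjusted p of the genes named below is 1 except that of Scd2. Because the counts are sums over 2 cells, a lower level in both cells and a loss from 1 of them cannot be told apart in them.

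**Figure D2:**
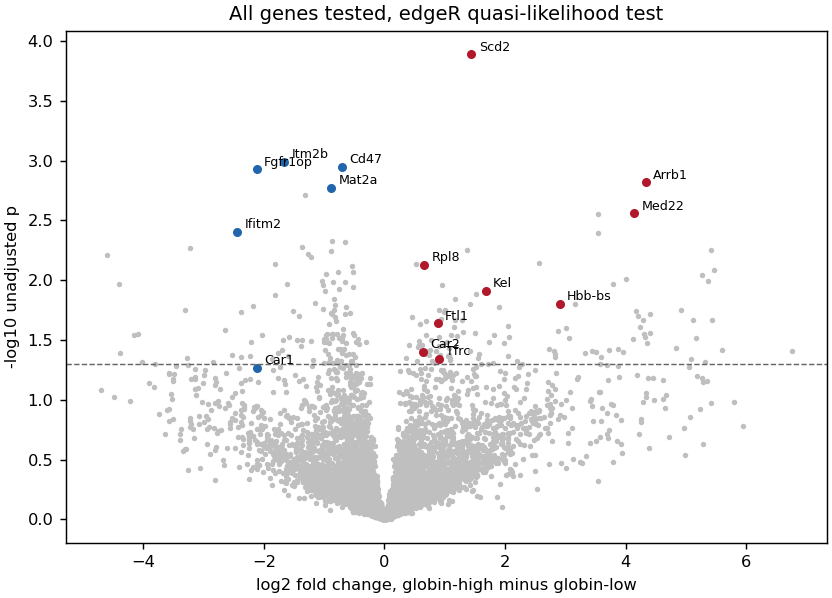
Log2 fold change (globin-high minus globin-low) against −log10 of the unadjusted edgeR p for the 7388 genes tested, with the line at p = 0.05. Points spread evenly to both sides, Scd2 stands highest, and the named erythroid genes Hbb-bs, Car2, Tfrc, Ftl1 and Kel lie to the right while Car1 lies to the left.

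The globins nearest to Hba-a1 had higher medians in the globin-high pairs. Hba-a2, the second α-globin gene, whose reads cannot be separated with certainty from those of the gene that chose the classes, ran from 0.26 to 3.34 (median 1.43) in globin-low and from 2.38 to 7.01 (median 4.04) in globin-high pairs. Its difference was 3.54 ± 1.02, and 2.27 without dexamethasone pair 9, and is a description only. Hbb-bs, an adult β-globin gene on another chromosome, ran from 1.01 to 10.3 (median 6.22) in globin-low and from 5.63 to 12.6 (median 8.31) in globin-high pairs. The groups overlapped: untreated pair 3, globin-low, held 10.3, while dexamethasone pair 5 and untreated pair 13, globin-high, held 5.63 and 6.00. Above every globin-low pair lay untreated pairs 1 and 6 and dexamethasone pair 9, at 11.6, 12.2 and 12.6. The difference in Hbb-bs was 2.91 ± 1.09 (p = 0.0157) and 0.89 without dexamethasone pair 9. It was 0.99 among the pairs in plate columns 1 to 4 and 4.29 in columns 5 to 7, and 1.56 among untreated and 4.08 among dexamethasone pairs, where the class by treatment interaction had p = 0.21. Hbb-bt, the other adult β-globin gene, ran from 0.00 to 6.05 (median 4.24) in globin-low and from 1.26 to 8.78 (median 6.12) in globin-high pairs, with a difference of 1.5 ± 1.05 (p = 0.169) and of 0.96 without dexamethasone pair 4. Of the 8 embryonic globin genes listed, 0 had enough counts to be tested.

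Globin-low pairs were not without β-globin. Untreated pairs 2, 3 and 11, with Hba-a1 of 4.203, 6.88 and 5.88, held Hbb-bs of 9.43, 10.3 and 9.53. Dexamethasone pairs 2 and 5, with Hba-a1 of 7.90 and 8.70, held 6.09 and 5.63. The order of the founders by Hba-a1 was not their order by Hbb-bs.

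The carbonic anhydrases had differences of opposite sign, and neither passed the adjusted test. Car2 (ENSMUSG00000027562, chromosome 3, 14886273 to 14900770, plus strand), an erythroid carbonic anhydrase and a marker of the lineage, ran from 9.42 to 11.8 (median 10.9) in globin-low and from 10.98 to 12.01 (median 11.3) in globin-high pairs. All 34 libraries held it above 10 CPM, and 5 of 9 globin-low pairs lay below the lowest globin-high pair, while dexamethasone pair 3, globin-low, held 11.8. The difference was 0.64 ± 0.29 (p = 0.0398), 0.63 in plate columns 1 to 4 and 0.76 in columns 5 to 7. Car1, a second carbonic anhydrase of red cells, ran from 3.06 to 10.5 (median 7.55) in globin-low and from 0.00 to 9.31 (median 6.04) in globin-high pairs, with a difference of −2.12 ± 1.03 (p = 0.0541). Untreated pairs 6 and 8, with Hba-a1 of 9.76 and 9.29, held Car1 at 0.00 and 0.73, and dexamethasone pair 1, with Hba-a1 of 6.23, held it at 10.5. Among the 12 tested genes of globin support and redox defence, 9 had a difference above 0, the median was 0.48 and 0 passed the adjusted test. Prdx2, a peroxiredoxin that removes peroxide in red cells, differed by 0.67 ± 0.31 (p = 0.0412), and Blvrb, a biliverdin reductase, by 0.78 ± 0.37 (p = 0.0474).

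**Figure D3:**
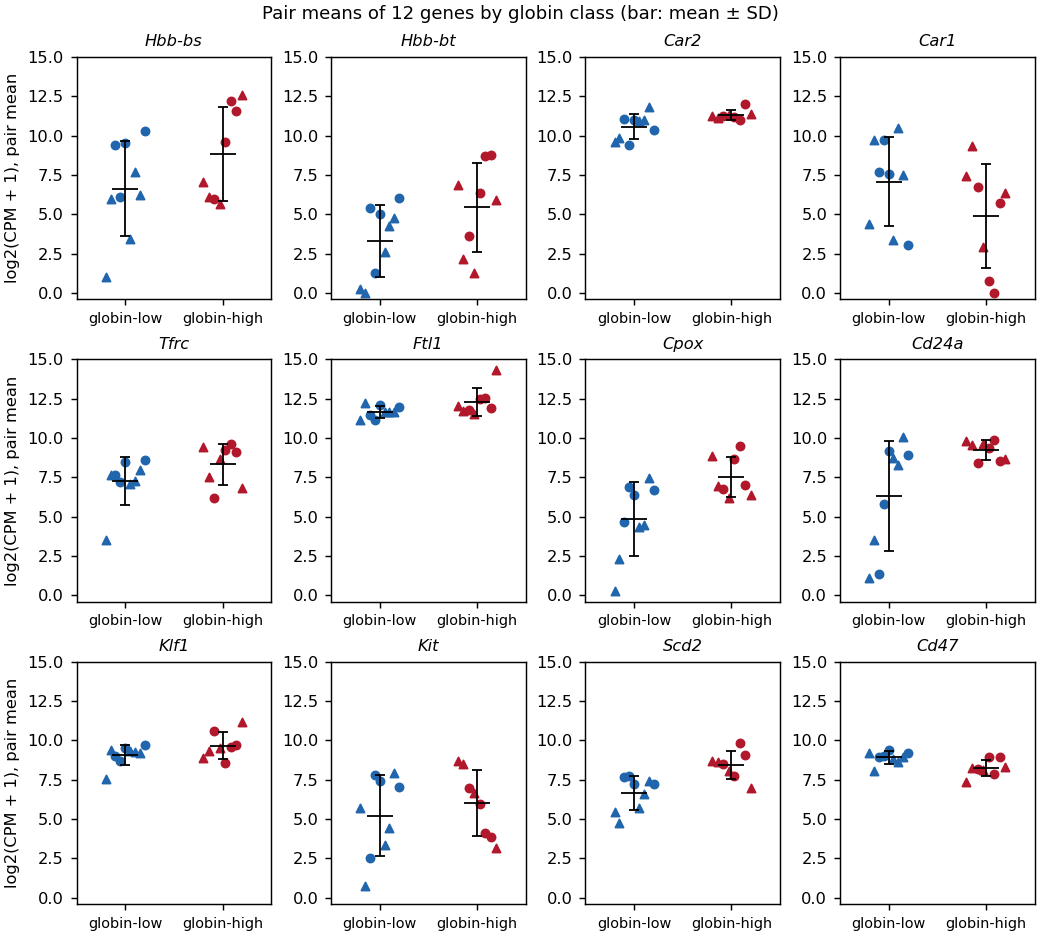
Pair means of log2(CPM + 1) for 12 genes by class (blue globin-low, red globin-high; triangles dexamethasone, circles untreated; black, mean ± SD of 9 and 8 pairs). The classes overlap in all 12 panels, and the lowest value lies in the globin-low class in every panel except Car1 and Cd47. In the globin-low class 3 pairs held Cd24a at 1.09, 1.36 and 3.53.

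Most heme synthesis genes had differences above 0, and none of them was called. Of 18 tested members 15 had a difference above 0 with a median of 0.63, against 50.3% and 0.00 over all genes, and 0 passed the adjusted test. The median was 0.30 without dexamethasone pair 9. Only 1 of the 18, Urod, had an unadjusted p under 0.05. Urod, uroporphyrinogen decarboxylase, differed by 0.89 ± 0.35 (p = 0.0218) and by 0.50 without that pair. Cpox, coproporphyrinogen oxidase in the next step, ran from 0.26 to 7.45 (median 4.69) in globin-low and from 6.17 to 9.53 (median 6.97) in globin-high pairs, and 5 of 9 globin-low pairs lay below the lowest globin-high pair. Its difference was 1.60 ± 0.76 (p = 0.0503). Alad, which joins 2 aminolevulinic acid molecules, differed by 0.66 ± 0.39 (p = 0.104) and by −0.0011 without dexamethasone pair 9. Alas2, the erythroid enzyme of the first step, was sparse: it reached 10 CPM in 4 of 16 globin-high and 6 of 18 globin-low libraries, its median was 0.00 in globin-low and 2.31 in globin-high pairs, and the 2 largest values, 6.82 and 5.91, were those of globin-low dexamethasone pair 3 and untreated pair 3. Its difference of −0.50 ± 1.78 became 3.67 without dexamethasone pair 3.

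Iron handling genes were more evenly divided, with 10 of 16 differences above 0, a median of 0.45 (0.27 without dexamethasone pair 9) and 0 passing the adjusted test. The ferritin chains store iron. Ftl1, the light chain, ran from 11.2 to 12.2 (median 11.6) in globin-low and from 11.5 to 14.3 (median 11.97) in globin-high pairs. Dexamethasone pair 9 alone held 14.3, and the difference of 0.88 ± 0.35 (p = 0.0230) was 0.26 without it. Fth1, the heavy chain, differed by 0.57 ± 0.25 (p = 0.0320), with 5 of 9 globin-low pairs below the lowest globin-high pair, but by 0.90 in plate columns 1 to 4 and −0.16 in columns 5 to 7. Tfrc, the transferrin receptor, which is CD71 and was stained in the sort, ran from 3.54 to 8.62 (median 7.63) in globin-low and from 6.22 to 9.60 (median 8.88) in globin-high pairs, where 5 of 8 exceeded every globin-low pair. Its difference was 0.91 ± 0.42 (p = 0.0452), and within the plate sets it was 1.33 in columns 1 to 4 and −1.10 in columns 5 to 7. Aco1, which as iron regulatory protein controls ferritin and transferrin receptor RNA, differed by 1.47 ± 0.90 (p = 0.120) and by 0.82 without untreated pair 13.

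Red cell membrane genes had the largest list median of those with more than 3 tested genes. Of 22 tested members 18 had a difference above 0, the median was 0.87, and 0 passed the adjusted test. The median was 0.69 without dexamethasone pair 9 and 0.66 without dexamethasone pairs 8 and 11. An unadjusted p under 0.05 was found for 1 member above 0, Kel, and 1 below 0, Cd47. Kel, the Kell blood group antigen, ran from 2.36 to 7.198 (median 3.58) in globin-low and from 2.49 to 8.45 (median 5.74) in globin-high pairs, a difference of 1.68 ± 0.61 (p = 0.0124). Sptb, β-spectrin of the membrane skeleton, differed by 2.28 ± 1.09 (p = 0.0502), and Xk, which is linked to Kel on the cell surface, by 2.16 ± 1.16 (p = 0.0782) and by 3.82 without dexamethasone pair 3. Cd24a, a surface antigen stained in the sort, split the globin-low class: dexamethasone pairs 8 and 11 and untreated pair 2 held 1.09, 3.53 and 1.36, untreated pair 5 held 5.80, and the other 5 held 8.31 to 10.04. Globin-high pairs held 8.39 to 9.91. On summed counts the difference in Cd24a was 0.93 ± 0.85 (p = 0.290). Cd47, the surface signal that restrains uptake by macrophages, went the other way. It ran from 8.03 to 9.39 (median 8.96) in globin-low and from 7.34 to 8.95 (median 8.23) in globin-high pairs. In 6 of 9 globin-low pairs it lay above every globin-high pair. The difference in Cd47 was −0.70 ± 0.18 (p = 0.0011, DESeq2 adjusted p = 0.0417, limma adjusted p = 0.632). In the plate sets it was −0.71 and −0.64.

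**Figure D4:**
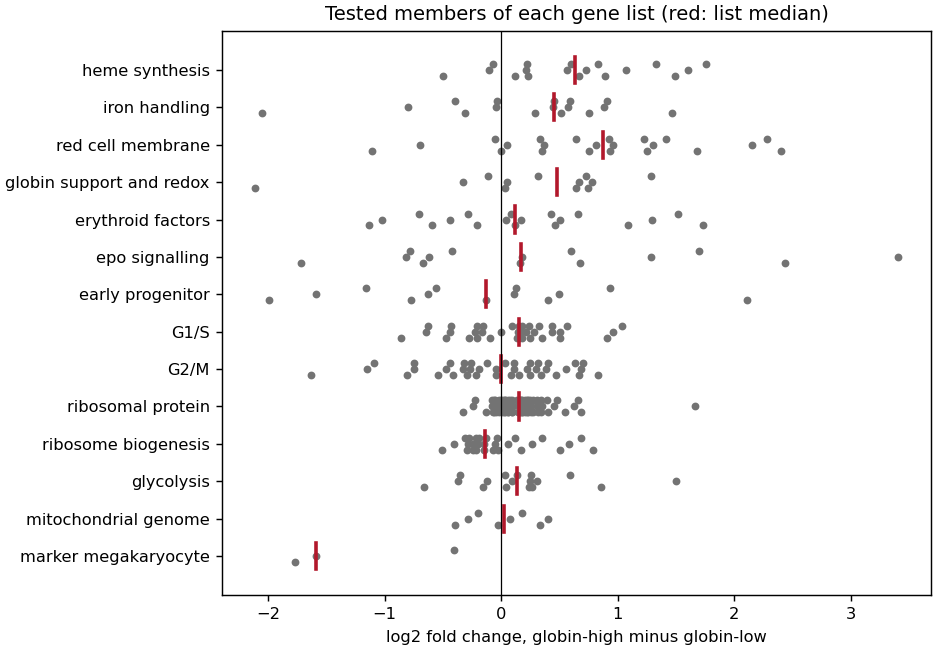
Log2 fold change (globin-high minus globin-low) of each tested gene in 14 lists (grey points) with the list median (red line). Heme synthesis and red cell membrane members lie mostly right of 0, with medians of 0.63 and 0.87, G2/M members straddle it, and the 3 megakaryocyte markers lie to its left.

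Among the erythroid factors, Gata1 and Klf1 reached 10 CPM in all 34 libraries and their levels overlapped between the classes. Gata1, which was used to select the pairs, ran from 7.996 to 9.79 (median 9.15) in globin-low and from 7.90 to 9.13 (median 8.93) in globin-high pairs. Its difference was −0.44 ± 0.34 and −0.05 without dexamethasone pair 11. Klf1, the CACCC-binding activator of β-globin, ran from 7.55 to 9.68 (median 9.26) in globin-low and from 8.59 to 11.2 (median 9.56) in globin-high pairs. It differed by 0.66 ± 0.35 (p = 0.0772) and by 0.27 without dexamethasone pair 9. E2f4, a cell cycle factor needed for red cell maturation, differed by 1.09 ± 0.51 (p = 0.0469). Over 19 tested erythroid factors 12 differences were above 0, the median was 0.12 and 0 passed the adjusted test, and in plate columns 1 to 4 the median was −0.04. Only 1 of the 19, E2f4, had an unadjusted p under 0.05. Epor, the erythropoietin receptor, had medians of 6.82 and 6.99 in globin-low and globin-high pairs, was at 0.00 in dexamethasone pair 8, and differed by 0.60 ± 0.70 (p = 0.406; 0.13 without dexamethasone pair 9). Of 14 tested genes of erythropoietin signalling 8 were above 0 and 0 passed, with a median of 0.17 that was −0.19 without dexamethasone pair 9.

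Genes of early progenitors showed no common direction. Of 13 tested members 6 were above 0 and 7 below, the median was −0.13 and 0 passed the adjusted test. That median was −0.34 without dexamethasone pair 9 and −0.71 in plate columns 1 to 4. Kit, the stem cell factor receptor and CD117 of the sort, ran from 0.77 to 7.90 (median 5.71) in globin-low and from 3.19 to 8.72 (median 6.32) in globin-high pairs, a difference of 0.93 ± 0.82 (p = 0.269) and of 0.40 without untreated pair 13. Myb differed by −1.16 ± 0.99 (p = 0.255). Gata2 reached 10 CPM in 6 of 16 globin-high and 5 of 18 globin-low libraries and differed by −0.63 ± 1.56 (0.08 without untreated pair 2). Myc differed by 0.13 ± 0.49 and by −0.53 without untreated pair 13. Adgrg1, an adhesion receptor of early progenitors, was lower in median, at 8.09 against 8.58, with a difference of −0.78 ± 0.37 (p = 0.0480), which was 0.37 in plate columns 5 to 7.

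Cell cycle genes were near the background. Among 36 tested G1/S genes 23 differences were above 0 with a median of 0.15 (0.07 without dexamethasone pair 9), and among 40 G2/M genes 20 were above 0 with a median of −0.0037, and 0 of either passed the adjusted test. Cdt1, which licenses replication origins, had the smallest p of the G1/S genes, at 0.0110, with a difference of 0.96 ± 0.34, and Rrm2, a subunit of ribonucleotide reductase, differed by 0.51 ± 0.39 (p = 0.210). Of 9 tested D cyclins and cyclin-dependent kinase regulators 3 were above 0, and their median of −0.13 was 0.08 without dexamethasone pairs 8 and 11. Cdk6, a partner of D cyclins, differed by −0.45 ± 0.26 (p = 0.0978), and Ccnd3, the D cyclin that sets division number in red cell precursors, by −0.24 ± 0.41 (p = 0.566; 0.05 without dexamethasone pair 11).

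Ribosomal protein genes had small differences that were mostly above 0, with 66 of 83 differences above 0, a median of 0.15 (0.08 without dexamethasone pair 9, 0.35 in plate columns 1 to 4) and 0 passing the adjusted test. Under limma the median of all genes moved to 0.16, and that of the ribosomal protein genes was 0.19, so the list then lay close to the whole table. Rpl8 and Rplp0, parts of the large subunit, differed by 0.66 ± 0.22 (p = 0.0074) and 0.46 ± 0.18 (p = 0.0205), the second by 0.29 without dexamethasone pair 9. Of the 83 genes, 4 had an unadjusted p under 0.05, all of them above 0. Pseudogenes can share reads with ribosomal protein genes. Ribosome biogenesis genes were mostly below 0, with 9 of 28 above it, a median of −0.14 (−0.09 without dexamethasone pairs 8 and 11) and 0 passing, and Ncl, nucleolin, differed by −0.24 ± 0.13 (p = 0.0740).

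Energy and organelle clearance lists held no called gene. Of 17 tested glycolysis genes 12 were above 0 with a median of 0.14, which was 0.05 without dexamethasone pair 9 and −0.13 in plate columns 1 to 4. Aldoa, an aldolase, differed by 0.26 ± 0.13 (p = 0.0573), Pklr, the red cell and liver pyruvate kinase, by 1.5 ± 0.92 (p = 0.121), and Ldha, lactate dehydrogenase, by −0.16 ± 0.13 (p = 0.242; −0.08 without untreated pair 1). The 8 tested mitochondrially encoded genes had a median of 0.03, which was 0.13 without dexamethasone pair 9 and −0.07 without dexamethasone pairs 8 and 11, and mt-Cytb, cytochrome b, differed by −0.28 ± 0.15 (p = 0.0735; −0.18 without untreated pair 11). Of 9 organelle clearance genes 5 were above 0. Bnip3l, which marks mitochondria for removal, differed by −1.08 ± 0.61 (p = 0.0950). Glucocorticoid response genes were above 0 in 8 of 9 cases with a median of 0.50 (0.25 without dexamethasone pairs 8 and 11). The exception was Tsc22d3, a glucocorticoid-induced leucine zipper gene, which reached 10 CPM in 6 of 16 globin-high and 8 of 18 globin-low libraries and differed by −3.37 ± 2.38 (p = 0.175; −0.11 without untreated pair 5). In all of these lists 0 genes passed the adjusted test.

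Markers of other blood cells were checked in every library, without a test of their sums. Libraries are counted here and in the next paragraph, and the 2 daughters of a founder are not independent. Summed megakaryocyte markers ranged from 59.4 to 2298 CPM (median 818.9) in globin-low libraries and from 1.42 to 590.4 CPM (median 168.5) in globin-high libraries, and at least 3 of the 12 markers reached 10 CPM in 11 of 18 and 4 of 16 libraries. Ppbp, Gp6 and Selp, markers of mature platelets and their precursors, were at 0 in all of them, and Pf4 and Treml1 were at 0 in the globin-high libraries. F2r, a thrombin receptor, ran from 3.29 to 9.46 (median 8.85) in globin-low and from 0.24 to 8.60 (median 6.10) in globin-high pairs, a difference of −1.77 ± 0.90 (p = 0.0653). Itga2b, which encodes CD41 and whose protein the sort depleted, differed by −1.59 ± 1.61 (p = 0.338). Leaving out 1 pair gave −3.29 (untreated pair 13) to −0.83, and plate columns 5 to 7 gave 2.97. Itga2b was highest in globin-low untreated pair 5, dexamethasone pair 8 and untreated pair 2, at 8.58, 7.88 and 7.10. The same pairs held Cd24a at 5.80, 1.09 and 1.36, below every globin-high pair. Dexamethasone pair 11, globin-low with Cd24a of 3.53, held Itga2b at 0.28. Globin-high untreated pair 13 and dexamethasone pair 5 held Itga2b at 6.74 and 6.36. Cd9, the last of the 3 markers with enough counts to be tested, differed by −0.40 ± 0.76 (p = 0.605). The part of these cells' megakaryocyte markers in the erythroid differences was not tested.

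Summed granulocyte and monocyte markers had medians of 16.7 CPM in globin-low (2.09 to 228) and 18.7 CPM in globin-high libraries (0.26 to 607.1). At least 3 of the 15 markers reached 10 CPM in 4 of 18 globin-low and 0 of 16 globin-high libraries. Cebpa, Cebpe and Csf3r were at 0 in all 34 libraries. Mpo, used to select the pairs, was highest in dexamethasone pair 9, with a pair mean of 8.97, and next in dexamethasone pair 5, also globin-high. Its difference of 1.79 ± 1.75 was 0.34 without dexamethasone pair 9. That pair also had the highest Hba-a1, Hbb-bs and Ftl1, and its part in each result is given by the values without it. Stem cell markers had median sums of 29.6 and 50.3 CPM. Those of lymphoid, mast, endothelial and liver cells and of macrophages had medians from 0 to 2.44 CPM in either class, and Alb and Adgre1 were at 0 throughout. The highest globin-high and globin-low libraries reached 136 and 149.7 CPM for mast and 115.4 and 60.95 CPM for liver cell markers. For macrophage markers these were 75.0 and 0.42 CPM, for endothelial 0.31 and 28.1 CPM, and for lymphoid 7.48 and 4.94 CPM.

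By p, Scd2 came first among all genes tested. Scd2 (ENSMUSG00000025203, chromosome 19, 44293674 to 44306864, plus strand), a stearoyl-CoA desaturase that makes monounsaturated fatty acids, ran from 4.73 to 7.74 (median 7.21) in globin-low and from 6.99 to 9.83 (median 8.58) in globin-high pairs. All but 1 of the globin-high pairs lay above every globin-low pair, and the exception was dexamethasone pair 9, at 6.99. The difference was 1.44 ± 0.30 (p = 0.00013, edgeR adjusted p = 0.958, DESeq2 adjusted p = 0.00126, limma adjusted p = 0.392). It was 1.61 and 0.79 in the 2 plate sets and 1.42 and 1.48 in untreated and dexamethasone pairs. Arrb1, β-arrestin 1, which uncouples activated receptors, differed by 4.33 ± 1.16 (p = 0.0015), with 7 of 9 globin-low pairs below the lowest globin-high pair but 6.67 and 5.88 in untreated pairs 2 and 3. Its difference was 2.09 among untreated and 6.20 among dexamethasone pairs (interaction p = 0.0263), and 1.65 at an Hba-a1 threshold of 8. Med22, a subunit of the Mediator complex, and Abhd17a, a depalmitoylating enzyme, were sparse, with globin-low medians of 0.54 and 1.30, and differed by 4.14 ± 1.20 and 3.54 ± 1.08.

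Among genes lower in globin-high pairs, Itm2b (chromosome 14, 73362226 to 73385289, minus strand), a membrane protein processed in the secretory pathway, ran from 7.70 to 9.84 (median 8.46) in globin-low and from 3.81 to 8.06 (median 7.18) in globin-high pairs. In 7 of 8 globin-high pairs it lay below every globin-low pair. Its difference was −1.66 ± 0.42 (p = 0.0010, DESeq2 adjusted p = 0.0116, limma adjusted p = 0.564). It was −0.72 among untreated and −2.52 among dexamethasone pairs (interaction p = 0.0178). Fgfr1op, a centrosomal protein, differed by −2.12 ± 0.55 (p = 0.0012). Mat2a, which makes S-adenosylmethionine, the methyl donor of the cell, ran from 9.34 to 11.2 in globin-low and from 7.89 to 9.93 in globin-high pairs, a difference of −0.88 ± 0.24 (p = 0.0017). Ifitm2, an interferon-induced membrane protein, ran from 2.47 to 9.03 (median 7.10) in globin-low and from 0.92 to 5.77 (median 5.64) in globin-high pairs, a difference of −2.44 ± 0.74 (p = 0.0040). Over all 7388 genes, 0 had every globin-high pair above every globin-low pair (0%), and 1, the predicted gene Gm1848, had every globin-low pair above every globin-high pair (0.0135%). It was named after its value was seen.

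Splitting by 1 daughter and measuring the other separates the cell that sets the class from the cell that is compared. With the class from the first daughter, 9 pairs were globin-high and 8 globin-low and 0 of 5506 genes were called in the second daughter, with 163 at an unadjusted p under 0.05. With the class from the second daughter, 8 and 9 pairs gave 0 of 5701 calls in the first, with 82. Hbb-bs differed by 2.50 (p = 0.0766) and 3.35 (p = 0.0057) in these comparisons and Car2 by 0.79 (p = 0.0062) and 0.49 (p = 0.202). Car1 differed by −2.35 and −2.34. Of the genes with the smallest p in the summed pairs, Scd2 differed by 1.85 and 1.21, Itm2b by −1.86 and −1.55 and Ifitm2 by −2.48 and −2.74. Others were less even: Med22 differed by 4.05 and 0.28 (p = 0.866), Abhd17a by 4.73 and 1.12, and Mat2a by −0.22 (p = 0.576) and −0.93. Fgfr1op differed by −1.83 (p = 0.147) and −0.92 (p = 0.394), and Cd47 by −0.40 (p = 0.160) and −0.75 (p = 0.075). For Arrb1 the values were 5.02 (p = 0.0224) and 3.22 (p = 0.0469). Those genes were picked on sums that hold these same cells, so their signs here are a description. Hbb-bt differed by 2.60 and −0.74, with no common sign. Both comparisons use the same founders, and 14 of 17 pairs have both daughters on 1 side of the threshold, so they are not independent of each other or of the summed comparison.

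The distance between sisters did not differ detectably between the classes. This distance, 1 minus the correlation of log2(CPM + 1) over 7438 genes, was 0.453 ± 0.035 (SD, n = 8) in globin-high and 0.476 ± 0.038 (SD, n = 9) in globin-low pairs, a difference of −0.023 with a two-sided exact permutation p of 0.214. Dexamethasone pair 11, whose Hba-a1 differed most between sisters, had the largest distance, 0.520, and dexamethasone pair 5 the smallest, 0.396. The class effect also did not differ detectably between arms: the class by treatment interaction called 0 of 7388 genes (0%) in edgeR, with 215 at an unadjusted p under 0.05.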

How the data were processed

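The deposited values are whole-number read counts per gene, not normalized, in 1 table per treatment with 49466 genes, and 0 columns were left unused. Per the submitters' processing notes, STAR 2.4 and featureCounts were used with build GRCm38; the settings for strand and shared reads were not given in the sources used here. Pairs were selected and split as stated above. Members, lists and tests were chosen with earlier results of these data known.

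Daughters' counts were summed and tested with edgeR 4.0.16 (R 4.3.3) by its quasi-likelihood test. TMM scaling, treatment as covariate and Benjamini-Hochberg adjustment over all genes were used. The edgeR filter on low counts (minimum count 10, total 15) was given the globin class. A gene with counts in 1 class alone could thus be kept. DESeq2 1.42.0 and limma 3.58.1 were alternatives. Exact permutation tests ran over 24310 assignments of pairs (scipy 1.17.1). The test was tested on simulated data. CPM carry a pseudocount of 1. Genes to name were, per direction, the 5 with the smallest p (none passed) after predicted genes without a name were left out. Up to 4 per list by p and a fixed set were added. That set held erythroid genes and also Kit, Gata2, Myc, Mpo and Tsc22d3. The text names part of the resulting 87 genes, chosen after their values were seen. Total counts limit the precision, and counts without molecular identifiers are not molecules. Locations are from GENCODE M21.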

Additional observations from a re-analysis of the deposited data

Results flagged for a closer look

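Within a class, a value was picked out when its gap to the nearest other pair was large for the range of the class (Dixon's 95% limit). Chance picks out about 1 in 20 groups, and 6 of 46 groups checked were picked out. Untreated pair 5 had the lowest log2 total counts of the globin-low pairs, at 20.01. Dexamethasone pair 8, also globin-low, was lowest in Klf1, at 7.545, in Tfrc, at 3.536, and in Epor, at 0, all in log2(CPM + 1). In the globin-high class, untreated pair 1 was highest in Car2, at 12.01, and dexamethasone pair 9 was highest in Ftl1, at 14.31.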

How the results depend on the processing

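The count of 0 called genes was also found under RLE scaling, limma, both other filters, Hba-a1 thresholds of 6 and 8, Hba-a1 as a continuous term, every covariate tried, each arm alone, each plate set alone, Gata1 and Mpo thresholds of 5, a robust spread, and without each pair in turn. DESeq2 called 38 genes. Genes at an unadjusted p under 0.05 numbered 226, against 528 under DESeq2, 504 under limma, 1977 without a filter, 482 at a threshold of 6 and 409 with the continuous term. The plate sets alone, the robust spread and leaving out dexamethasone pairs 8 and 11 together were chosen after seeing the data. No paired analysis was possible because each founder pair lies in 1 class and pair numbers only count founders within a treatment.

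Of 86 genes that the naming rule gave with a test, 55 kept their sign under all alternatives and in both sister-cell comparisons where tested, and 31 did not. Sign changes of genes in the text, none called in either setting, were as follows. With an Mpo threshold of 5, Alad was −0.15, Tsc22d3 0.38 and Mpo −0.94. Among untreated pairs alone, Alad was −0.039, Ccnd3 0.40 and Mpo −1.54, and among dexamethasone pairs alone Myc was −0.088. In plate columns 5 to 7, Fth1 was −0.16, Tfrc −1.10, Adgrg1 0.37, Itga2b 2.97, Alas2 8.15 and Gata2 1.38, and in columns 1 to 4 Myc was −0.88. At a threshold of 8, Kit was −0.10, Ccnd3 0.32 and Alas2 0.28, and at 6 Mpo was −0.89 and Alas2 1.58. Alas2 was 0.51 with the continuous term, Tsc22d3 0.20 and Myc −0.074 with log2 total as covariate. Myc was −0.18 with the 2 plate sets as covariate. Ccnd3 was 0.082 without dexamethasone pairs 8 and 11, and under limma Gata2 was 0.19 and Myc −0.58. Leaving out 1 pair gave −0.0011 to 0.83 for Alad, −0.46 to 0.045 for Ccnd3, −1.82 to 3.67 for Alas2, −1.12 to 0.077 for Gata2, −0.53 to 0.30 for Myc and −0.21 to 0.66 percentage points for the share of the 100 largest genes. In the first daughter, with the class from the second, Hbb-bt was −0.74, Kit −0.14, Ccnd3 0.14 and Myc −0.0045. Cd9 had the opposite sign in 2 of 37 alternatives. The cause of these sign changes was not tested. Genes detected in few libraries, such as Alas2, have wide standard errors at this depth.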
